A study of Homo sapiens with 17 samples.

Results

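The polyamine genes described here are 8 named genes of polyamine metabolism, several of them known for control at translation: ODC1, AMD1, SRM, SMS, SAT1, OAZ1, OAZ2 and AZIN1. They were taken by name, and each is represented by its most counted transcript of a time point, which was the same transcript at 36 and 72 h for 8 of 8 genes. All 8 were counted at both time points, out of 15660 counted genes at 36 h and 17023 at 72 h. A mean of at least 20 counts in the footprint and in the mRNA libraries was needed for testing, which left 7 of the 8 among 9016 genes at 36 h and 8 of 8 among 10896 genes at 72 h. SAT1 fell short in the footprints of 36 h.

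Putrescine, spermidine and spermine are small charged molecules that bind RNA and that growing cells need for protein synthesis. ODC1 makes putrescine, AMD1 provides the aminopropyl donor, SRM and SMS add aminopropyl groups to form spermidine and spermine, and SAT1 acetylates both for breakdown and export. The antizymes OAZ1 and OAZ2 bind ODC1 and send it to the proteasome, AZIN1 is an ODC1-like protein that holds the antizymes back, and high polyamine levels raise antizyme synthesis by a shift of the ribosome to another reading frame.

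HEK293, an established human embryonic kidney cell line, was electroporated with Cas9 or with dCas9, the form that binds DNA but does not cut it, each loaded with the sgIntron guide against an intron of the JAK2 gene. Ribosome footprints, the mRNA pieces that translating ribosomes protect from nuclease, and mRNA were sequenced from cells lysed 36 or 72 h later. At 36 h there were 2 footprint libraries for Cas9 (a and c) and 2 for dCas9 (d and e), and 3 mRNA libraries for Cas9 (a, b and c) and 2 for dCas9 (d and e). The 72 h set held mRNA replicates a and b and footprint replicates e and f of Cas9, and as many of dCas9 under the same letters, which made 17 libraries in all. At 72 h the letters do not tell which footprint and mRNA libraries share a lysate. The names of the Cas9 footprint libraries of 72 h write rcas9, and these libraries were placed by their treatment label, so every footprint and translational efficiency contrast at 72 h rests on that label. All groups, the dCas9 controls included, thus received a guide and a Cas9 protein by electroporation, and 4 electroporations were pooled on a plate to form each replicate. The amounts of Cas9 protein and of guide are given as the same for every library. The guide was synthetic at 36 h and transcribed in vitro at 72 h, so in any contrast of the time points the guide and time itself cannot be told apart. The set of transcripts counted also changed, with 26679 listed at 36 h and 98334 at 72 h, and cannot be told apart from time either. Whether the aligner changed is unclear. The labels name 1 aligner for all libraries, and the study's methods name a different one for each time point.

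The depth of the footprint libraries ran from 689636 to 4868580 counts at 36 h and from 3183558 to 8864461 counts at 72 h. For mRNA it ran from 25095505 to 33350952 counts and from 33040306 to 42825659 counts. Levels are given as CPM, the counts scaled to the total of each library over the tested genes. Of 7 markers of HEK293, 6 were above 1 CPM in every mRNA library, with PAX2 at no more than 0.320 CPM. The summed level of the 7 was 1095 to 1229 CPM at 36 h and 720 to 917 CPM at 72 h. Most of it came from VIM, at 949 to 1069 CPM at 36 h and 599 to 783 CPM at 72 h. Of 6 markers of K562, another cell line of the study, none was above 1 CPM in every mRNA library of a time point, and the 6 together reached 1.81 CPM at most, most of it from TAL1. The leukocyte marker PTPRC stayed at or below 0.769 CPM.

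Sequence elements through which the antizymes and AMD1 are known to be controlled were read from the human genome (hg38) for the transcripts kept here. The antizyme mRNAs carry a stop codon within the coding sequence, shown in capitals in the next lines, at which a part of the ribosomes slips forward by 1 base and goes on. In OAZ1 (ENST00000602676, chr19:2271431-2271460, plus strand) 68 codons stand before this stop, and 70.2% of the codons lie after it. In OAZ2 (ENST00000326005, chr15:64691498-64691527, minus strand) 32 codons stand before it and 83.1% of the codons lie after it. Apart from the base that GENCODE leaves out, both sites are exonic, and they are identical at 28 of 30 bases.
OAZ1: cggtggtgctccTGAtgcccctcacccacc
OAZ2: ctgtggtgctccTGAtgcccctcacccact
The leader of AMD1 (ENST00000368885, chr6:110874796-110874816, plus strand) holds a short upstream reading frame of 6 codons, at which ribosomes are known to stall when polyamines are high. Its start and stop codons are in capitals, it is the only upstream ATG of this transcript (1 found), and it lies in the 5′ untranslated region, ending 289 bases before the main start codon.
AMD1: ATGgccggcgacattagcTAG
The deposited counts cover the annotated coding part only and give 1 number for each transcript. Ribosomes before and after the antizyme stop are therefore summed, ribosomes on the AMD1 leader are not counted, and neither the shifted share nor the occupancy of the upstream frame was measured.

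Levels of different genes are compared only per length, as CPM per 1000 counted codons. OAZ1 had the highest mRNA level of the 8 genes, with a median of 4931 CPM per 1000 codons over 5 libraries at 36 h and 4445 over 4 libraries at 72 h. At 36 h ODC1 (1065), SRM (750), AMD1 (647) and SMS (471) followed on the same scale without overlap between neighbours. AZIN1 (125), OAZ2 (118) and SAT1 (115) were lowest at 36 h and overlapped each other in their library ranges. At 72 h ODC1 (926) and AMD1 (898) overlapped in mRNA, SMS stood at 519 and SRM at 367 CPM per 1000 codons, and AZIN1 (251) overlapped both SRM and SAT1 (131), with OAZ2 (78.6) below all of them.

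In footprints, OAZ1 was again highest, with a median of 1792 CPM per 1000 codons at 36 h and 1039 at 72 h. SRM came next, at 739 and 635, ahead of ODC1, at 460 and 416, and these 3 genes did not overlap each other at either time point. AMD1 had footprint medians of 275 and 295, SMS 206 and 221, OAZ2 148 and 130, AZIN1 52.6 and 93.6 and SAT1 8.02 and 35.1 CPM per 1000 codons. At 36 h the neighbours from AMD1 to AZIN1 overlapped in this order, and at 72 h no neighbours among the 8 overlapped. SRM thus had rank 2 of the 8 by footprints at both time points, and rank 3 at 36 h and rank 5 at 72 h by mRNA.

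**Figure D1:**
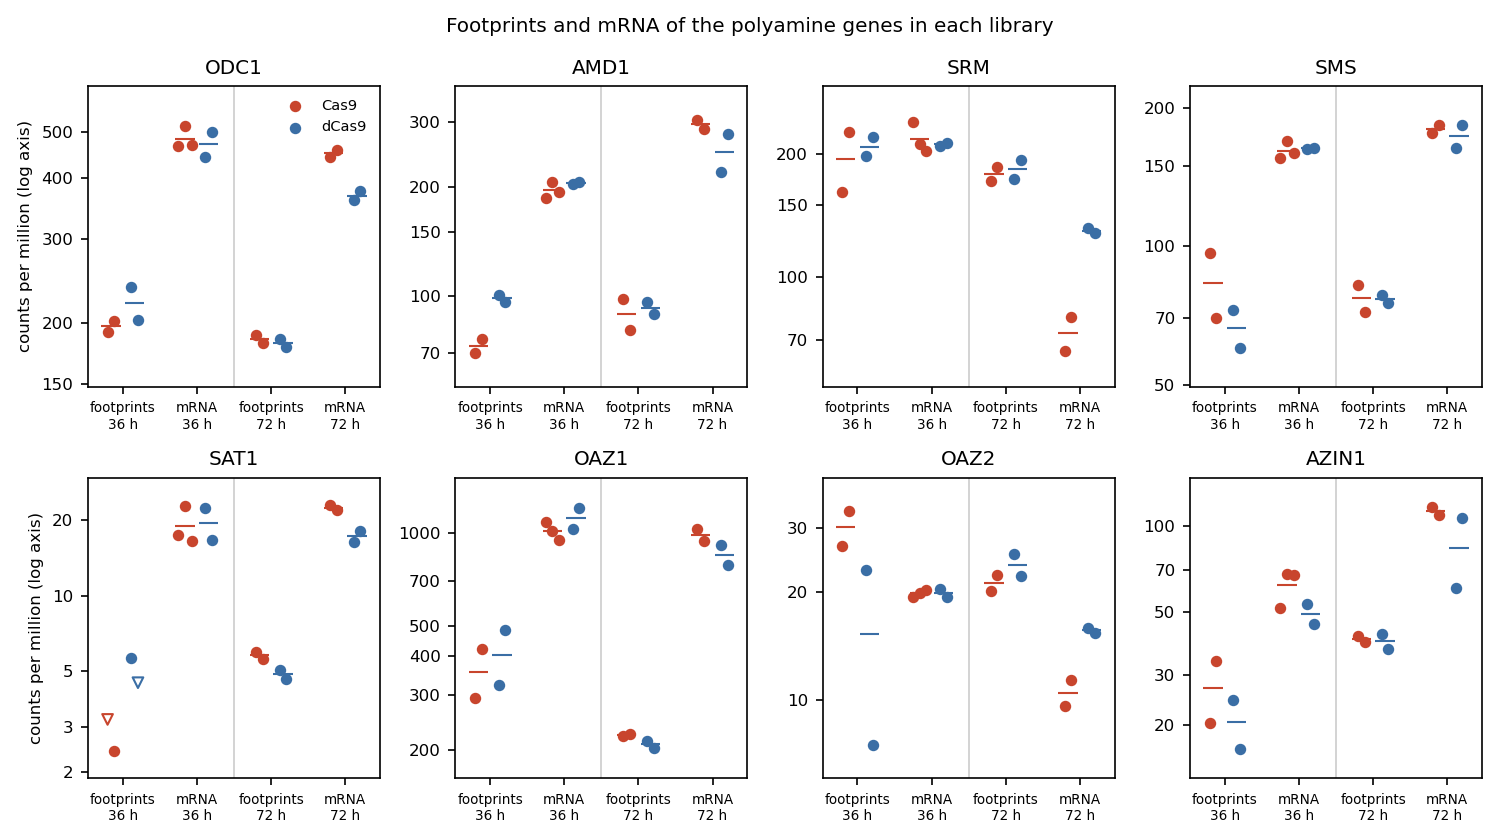
Footprints and mRNA of each polyamine gene in CPM (log axis) for each library, with 1 point per library, Cas9 in red and dCas9 in blue, horizontal lines for group means, and open triangles for libraries with 0 counts, drawn at the level of 3 counts. SRM mRNA at 72 h lay at 66.0 and 79.7 CPM for Cas9 and at 131 and 128 CPM for dCas9, while its footprints overlapped between the nucleases at both time points.

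Footprints per mRNA were expressed as a ratio, the footprint CPM of a library over the mean mRNA CPM of its nuclease and time point. Over all tested genes the median ratio with Cas9 was 0.868 at 36 h and 0.856 at 72 h, and with dCas9 it was 0.880 and 0.869. ODC1, AMD1, SMS, OAZ1 and AZIN1 lay below these medians in every footprint library, with ratios between 0.225 and 0.598. SAT1 lay below them as well, at 0.251 to 0.294 at 72 h, and at 36 h at 0.128 and 0.291 in the 2 libraries that had any SAT1 count. By group mean, the ratio of OAZ1 at 72 h stood at percentile 3.18 (Cas9) and 3.57 (dCas9) of all tested genes, SAT1 at 4.68 and 5.08, AMD1 at 7.09 and 10.4, and ODC1 at 13.9 and 19.0. SRM and OAZ2 stood at the other side at 72 h, at percentiles 92.3 and 80.1 for SRM and 88.6 and 82.9 for OAZ2. The 2 antizymes, whose shift sites differ at few bases, thus had group means of 0.227 and 0.245 (OAZ1) against 2.02 and 1.52 (OAZ2) at 72 h, and no footprint library of either time point gave OAZ1 a ratio above that of OAZ2 except dCas9 e at 36 h, where OAZ2 had 5 counts. These ratios are descriptions over 2 libraries each, with no test.

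**Figure D2:**
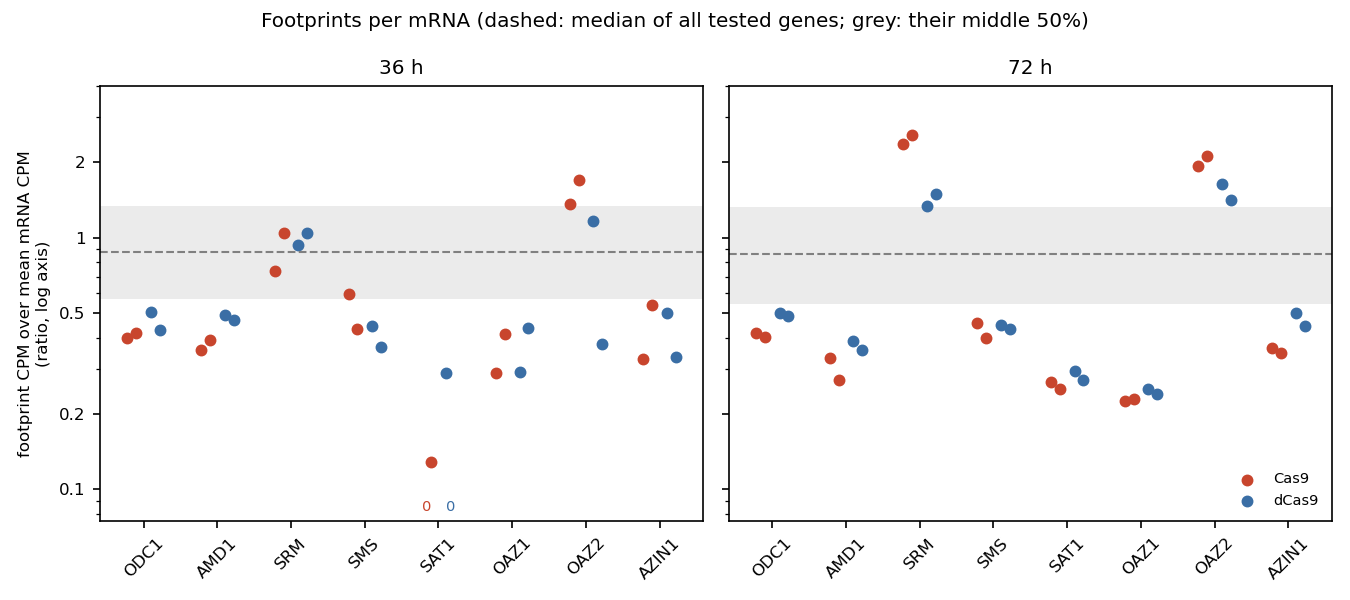
Footprint CPM over mean mRNA CPM (ratio, log axis) for each footprint library at 36 h (left) and 72 h (right), with Cas9 in red, dCas9 in blue, a dashed line at the median of all tested genes and a grey band over their middle 50%, and 0 marking libraries without a SAT1 count. ODC1, AMD1, SMS, OAZ1 and AZIN1 lie at 0.225 to 0.598, below the dashed line, and SRM and OAZ2 lie above the band at 72 h.

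The comparison of Cas9 with dCas9 asks what a DNA break changes beyond the delivery of protein and guide. It was made for footprints, for mRNA and for translational efficiency, the change in footprints relative to the change in mRNA, with edgeR's quasi-likelihood test and Benjamini-Hochberg adjustment over all tested genes at a false discovery rate of 0.1. Of the 8 genes only SRM passed, with lower mRNA and higher translational efficiency in Cas9 cells at 72 h. No polyamine gene tested passed in footprints at either time point or in any comparison at 36 h. Over all tested genes at 72 h, the share that passed was 2.69% for mRNA (2.66% lower), 0.716% for translational efficiency (0.698% higher) and 0.0367% for footprints, and 0.0222% for mRNA and 0.0% for footprints and translational efficiency at 36 h. For the last 2, 188 and 568 of 9016 genes had an unadjusted p under 0.05, and DESeq2 gave 0 and 1 calls.

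SRM, spermidine synthase (chr1:11054584-11060020, minus strand), had 66.0 and 79.7 CPM of mRNA in the Cas9 libraries at 72 h and 131 and 128 CPM in the dCas9 libraries. Both Cas9 values were below both dCas9 values. The log2 fold change was -0.83 (SE 0.134, edgeR adjusted p = 0.0254), a level 1.78-fold lower, and 0.734% of all tested genes had a lower value. Less mRNA per cell and fewer cells that contain it cannot be told apart in these bulk libraries. At 36 h SRM mRNA had been 239, 212 and 203 CPM with Cas9 and 210 and 213 CPM with dCas9, with groups that overlapped and a log2 fold change of 0.05 (SE 0.0973, edgeR adjusted p = 0.999).

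SRM footprints did not show this drop. At 72 h they were 171 and 186 CPM with Cas9 and 173 and 194 CPM with dCas9, which overlap, and the log2 fold change was -0.04 with a 95% interval from -0.21 to 0.14 (edgeR adjusted p = 0.9997). At 36 h they were 161 and 226 CPM against 197 and 220 CPM, with a log2 fold change of -0.09 (SE 0.230). The ratio of footprints to mRNA was accordingly 2.35 and 2.56 with Cas9 and 1.34 and 1.49 with dCas9 at 72 h, and the change in translational efficiency was 0.80 on the log2 scale (SE 0.163, edgeR adjusted p = 0.0435). At 36 h the ratios were 0.740 and 1.04 against 0.935 and 1.04, which overlap.

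The effect on SRM mRNA differed between the time points, with a log2 fold change that was lower by 0.89 at 72 h than at 36 h (difference -0.89, SE 0.150, edgeR adjusted p = 0.0318), where 0.613% of 8970 genes passed, all of them lower. In footprints the SRM effect differed by 0.02 (SE 0.232) between the time points, and none of the genes passed (0.0%, with 287 at an unadjusted p under 0.05 in edgeR and 0 calls in DESeq2). The call for SRM mRNA at 72 h was lost without Cas9 replicate a (-0.70, edgeR adjusted p = 0.512), where 5 genes in all still passed, and was kept without each of the other 3 libraries. The call for translational efficiency was lost without Cas9 mRNA replicate a (0.68, edgeR adjusted p = 0.167) and without any 1 of the 4 footprint libraries (0.72 to 0.88, adjusted p 0.176 to 0.406), where 1 to 3 genes in all passed. The difference between the time points was lost without Cas9 replicate b (-0.91, edgeR adjusted p = 0.103) or c (-0.93, adjusted p = 0.119) or dCas9 replicate e (-0.88, adjusted p = 0.235) of 36 h, and without Cas9 replicate a of 72 h (-0.74, adjusted p = 0.210). GENCODE lists 3 pseudogene copies named after SRM, so reads of the gene and of its copies may have been split by the alignment. Copies under other names were not searched for, here or for the other genes.

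**Figure D3:**
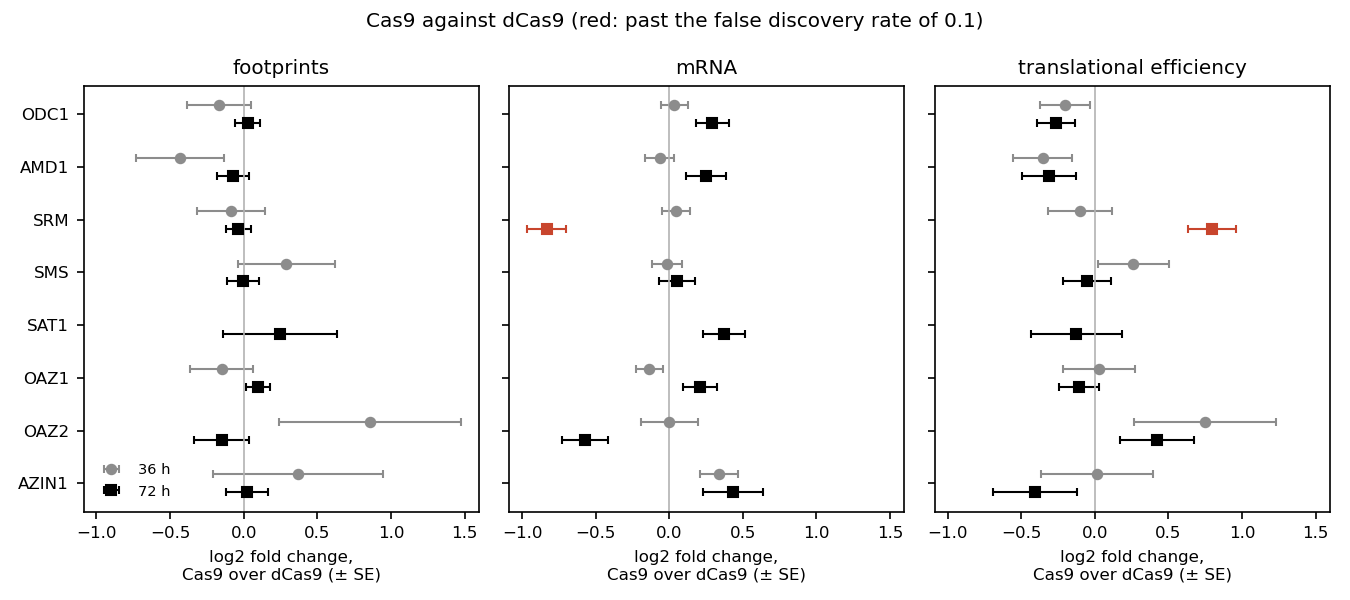
Log2 fold change of Cas9 over dCas9 with its SE for footprints, mRNA and translational efficiency, with grey circles for 36 h, black squares for 72 h and red for values past the false discovery rate of 0.1. Only SRM at 72 h is red, at -0.83 for mRNA and 0.80 for translational efficiency, while its footprint value at 72 h is -0.04.

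ODC1, ornithine decarboxylase, the rate-limiting enzyme of the pathway (chr2:10439968-10448327, minus strand), had 443 and 459 CPM of mRNA with Cas9 and 361 and 376 CPM with dCas9 at 72 h. Both Cas9 values were higher, but the log2 fold change of 0.29 (SE 0.111) did not pass the test (edgeR adjusted p = 0.265). Its footprints at 72 h were 189 and 182 CPM against 185 and 179 CPM, a log2 fold change of 0.03 with a 95% interval from -0.14 to 0.19. At 36 h ODC1 mRNA was 466, 513 and 470 CPM with Cas9 and 444 and 499 CPM with dCas9, with overlap. Footprints at 36 h were 192 and 203 CPM with Cas9 and 238 and 203 CPM with dCas9, and the log2 fold change was -0.17 (SE 0.214). In translational efficiency ODC1 had -0.20 (SE 0.172) at 36 h and -0.26 (SE 0.128) at 72 h, neither past the threshold (edgeR adjusted p = 0.887 and 0.468). The 2 listed ODC1 transcripts carried the same counts, so the choice between them left the values unchanged.

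AMD1, S-adenosylmethionine decarboxylase, whose upstream frame is printed above (chr6:110874770-110898879, plus strand), had footprints of 69.8 and 76.3 CPM with Cas9 and 101 and 96.2 CPM with dCas9 at 36 h. Both Cas9 values lay below both dCas9 values, at a log2 fold change of -0.43 (SE 0.2997, edgeR adjusted p = 0.999). The mRNA of AMD1 at 36 h was 187, 206 and 194 CPM against 203 and 205 CPM, with overlap. At 72 h its footprints overlapped, at 98.4 and 80.5 CPM against 96.5 and 89.2 CPM, and its mRNA was 305 and 288 CPM against 220 and 278 CPM (log2 fold change 0.25, SE 0.134, edgeR adjusted p = 0.399). The lower dCas9 value came from replicate a. Translational efficiency of AMD1 was -0.35 (SE 0.201) at 36 h and -0.31 (SE 0.183) at 72 h on the log2 scale, and neither passed (edgeR adjusted p = 0.825 and 0.549). The SE at 36 h lies below the 0.2997 of the footprints alone, and translational efficiency was fitted with 1 spread for both library types. GENCODE lists 4 pseudogene copies named after AMD1.

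SMS, spermine synthase (chrX:21940709-21994837, plus strand), varied least among the synthesis enzymes in mRNA, by 1.09-fold over the libraries of 36 h and 1.12-fold over those of 72 h. It had 156, 170 and 160 CPM with Cas9 and 163 and 164 CPM with dCas9 at 36 h, and 177 and 184 CPM against 164 and 183 CPM at 72 h. The groups overlapped at both time points, with log2 fold changes of -0.02 (SE 0.1004) and 0.05 (SE 0.122). Footprints of SMS were 96.7 and 69.8 CPM against 72.7 and 60.1 CPM at 36 h and 82.4 and 71.9 CPM against 78.3 and 75.1 CPM at 72 h. They overlapped as well, and the 72 h difference of 0.00 had a 95% interval from -0.22 to 0.21 on the log2 scale. SMS has 1 pseudogene copy by name.

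SAT1, the spermidine and spermine acetyltransferase that starts polyamine breakdown (chrX:23783173-23786210, plus strand), was too sparse in footprints to test at 36 h. It had 0 and 6 footprint counts with Cas9 and 28 and 0 with dCas9, and the 2 empty libraries allow up to 3.22 CPM (Cas9 a) and 4.51 CPM (dCas9 e), counting 3 counts as the limit and covering counting error only. Its mRNA at 36 h was 17.4, 22.6 and 16.5 CPM with Cas9 and 22.3 and 16.6 CPM with dCas9, with overlap. At 72 h SAT1 mRNA was 22.9 and 21.8 CPM against 16.4 and 18.1 CPM, both Cas9 values being higher (log2 fold change 0.37, SE 0.142, edgeR adjusted p = 0.266). SAT1 footprints at 72 h rest on 19 and 33 counts with Cas9 and 34 and 41 with dCas9, or 5.97 and 5.59 CPM against 5.06 and 4.66 CPM. Their log2 fold change of 0.25 had a 95% interval from -0.51 to 1.01, so a difference of this size was not detectable at this depth.

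OAZ1, the main antizyme (chr19:2269509-2273490, plus strand), had mRNA of 1080, 1014 and 946 CPM with Cas9 and 1026 and 1199 CPM with dCas9 at 36 h, and of 1025 and 942 CPM against 916 and 786 CPM at 72 h. The groups overlapped at 36 h, and at 72 h both Cas9 values were higher, without passing the test (log2 fold change 0.21, SE 0.115, edgeR adjusted p = 0.412). Footprints of OAZ1 at 72 h were 221 and 225 CPM against 213 and 204 CPM. Here too both Cas9 values were higher, but the change was 0.10 on the log2 scale with a 95% interval from -0.06 to 0.26 (edgeR adjusted p = 0.9997). At 36 h they were 293 and 421 CPM against 324 and 486 CPM, with overlap. Translational efficiency of OAZ1 changed by 0.03 (SE 0.245) and -0.11 (SE 0.134) on the log2 scale at 36 and 72 h, neither past the threshold. OAZ1 has 1 pseudogene copy by name.

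OAZ2, a further antizyme (chr15:64687573-64703281, minus strand), had 9.63 and 11.4 CPM of mRNA with Cas9 and 15.9 and 15.4 CPM with dCas9 at 72 h. Both Cas9 values were lower, and the log2 fold change of -0.57 (SE 0.155) missed the threshold (edgeR adjusted p = 0.109). Over the settings that kept all libraries its adjusted p ran from 0.00481 to 0.131. It passed without dCas9 replicate b (-0.59, edgeR adjusted p = 0.0407) and not without Cas9 replicate a (-0.46, adjusted p = 0.9999). Its footprints at 72 h were 20.1 and 22.2 CPM against 25.5 and 22.1 CPM, which overlap (log2 fold change -0.15, SE 0.189). Translational efficiency was 0.42 (SE 0.248, edgeR adjusted p = 0.549), with ratios of 1.92 and 2.12 against 1.63 and 1.41. At 36 h OAZ2 mRNA was 19.4, 19.9 and 20.3 CPM with Cas9 and 20.4 and 19.3 CPM with dCas9, the narrowest range of the 8 genes (1.06-fold over 5 libraries). Footprints at 36 h were 26.9 and 33.5 CPM against 23.0 and 7.52 CPM, the last from 5 counts, and the log2 fold change of 0.86 had a 95% interval from -0.35 to 2.07.

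AZIN1, the antizyme inhibitor, had mRNA of 51.7, 67.9 and 67.1 CPM with Cas9 and 53.3 and 45.2 CPM with dCas9 at 36 h. The groups overlapped, at a log2 fold change of 0.34 (SE 0.127, edgeR adjusted p = 0.934). At 72 h AZIN1 mRNA was 117 and 109 CPM with Cas9 and 60.7 and 106 CPM with dCas9. The dCas9 libraries differed from each other more than replicate b did from either Cas9 library, and the log2 fold change of 0.43 (SE 0.205, edgeR adjusted p = 0.349) ranged from 0.09 without dCas9 replicate a to 0.90 without dCas9 replicate b. Footprints of AZIN1 overlapped at both time points, at 20.4 and 33.5 CPM against 24.6 and 16.5 CPM at 36 h and 41.2 and 39.2 CPM against 41.7 and 37.2 CPM at 72 h. The 72 h footprint difference of 0.03 had a 95% interval from -0.25 to 0.31 on the log2 scale, and translational efficiency was -0.40 (SE 0.284, edgeR adjusted p = 0.621).

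Counted over the genes, the mRNA groups at 72 h did not overlap for 7 of 8 polyamine genes, 5 higher with Cas9 and 2 lower. Of all tested genes 49.6% did not overlap, 24.4% higher and 25.2% lower. In translational efficiency the ratios at 72 h did not overlap for 7 of 8, against 53.2% of all genes, but these ratios use the mean mRNA of a group and so leave out the spread between mRNA libraries. Over the 16 combinations of single footprint and mRNA libraries, 3 of 8 genes, ODC1, SRM and OAZ2, lay on 1 side throughout, against 26.9% of all genes, while AMD1 had 2, SAT1 1, OAZ1 4 and AZIN1 3 combinations of the opposite sign. Over the 24 combinations of 36 h this held for 2 of 7 genes, AMD1 and OAZ2, against 14.9% of all. In footprints at 72 h this held for 2 of 8 genes, against 31.7% of all, and at 36 h for 3 of 7 genes in footprints (all genes 30.5%), 0 of 7 in mRNA (16.9%) and 3 of 7 in the ratios to mean mRNA (33.5%). Taken without sign, the log2 fold changes of the 8 genes at 72 h had a median of 0.33 in mRNA and of 0.05 in footprints, beside 0.16 and 0.11 over all genes. Leaving out dCas9 mRNA replicate b of 72 h took 5 further genes past the threshold, ODC1, AMD1, SAT1, OAZ2 and AZIN1, while the number over all genes rose from 293 to 2828 of 10896. Their log2 fold changes were then 0.33, 0.44, 0.45, -0.59 and 0.90, with edgeR adjusted p from 0.0222 to 0.0580. Without the same library, translational efficiency passed for AMD1 (-0.45, edgeR adjusted p = 0.0968) and AZIN1 (-0.82, adjusted p = 0.0177), among 1065 genes.

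The mRNA change at 72 h went with base composition over all genes, with a rank correlation of -0.42 between the log2 fold change and the GC content of the coding sequence over 10856 genes, which share the same 4 libraries and are not independent. The polyamine genes span 39.6% (AZIN1) to 61.9% GC (SRM). Among the 656 genes within 1 percentage point of SRM, the median log2 fold change was -0.08 and 0.610% had a lower value than SRM. For OAZ2, at 52.0% GC, the median of 736 such genes was -0.02, and 2.58% were lower. ODC1, SAT1, OAZ1 and AZIN1 stood above 92.7% to 96.6% of the genes of like GC content, AMD1 above 73.7% and SMS above 40.5%. With each library corrected for GC content, SRM mRNA was at -0.76 (edgeR adjusted p = 0.00426), and ODC1 (0.25, adjusted p = 0.0351), SAT1 (0.31, 0.0561), OAZ1 (0.30, 0.0337) and OAZ2 (-0.54, 0.0146) passed as well, in a setting in which 2376 of 10896 genes passed. The values of AMD1 and AZIN1 shrank under this correction, from 0.25 to 0.12 (edgeR adjusted p = 0.246) and from 0.43 to 0.24 (adjusted p = 0.112), and that of SMS went from 0.05 to -0.02 (adjusted p = 0.858). With the replicate letter as a block besides, AZIN1 passed (0.25, edgeR adjusted p = 0.0294).

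**Figure D4:**
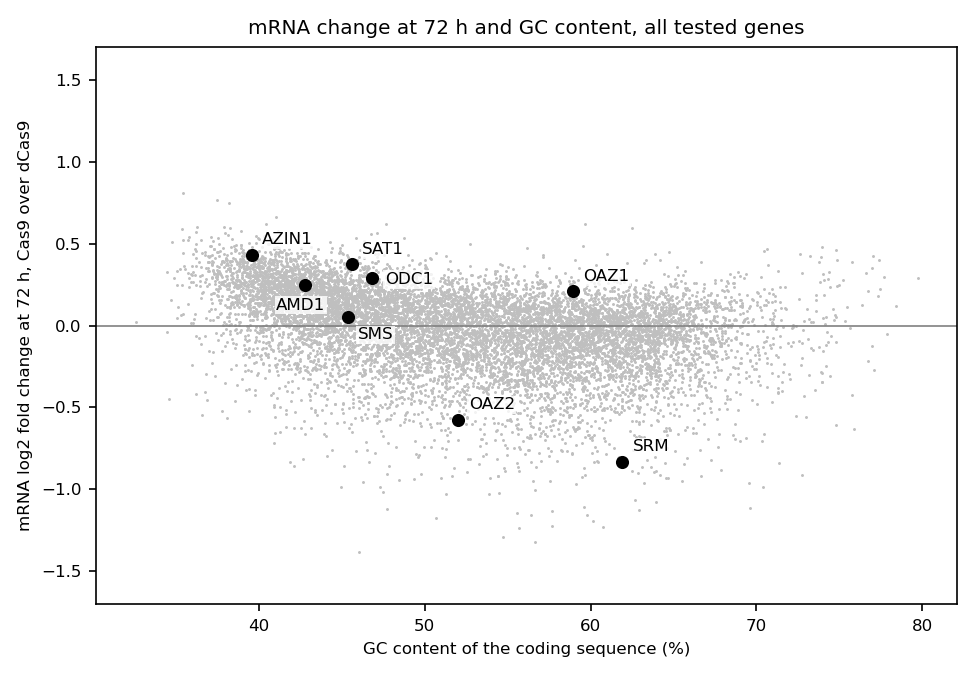
The mRNA log2 fold change at 72 h (Cas9 over dCas9) against the GC content of the coding sequence in percent, with grey points for all tested genes with a GC value (2 lie outside the axis range) and black points for the polyamine genes. The grey cloud falls from left to right (rank correlation -0.42), SRM lies at -0.83 and 61.9% GC, and OAZ1 lies at 0.21 and 58.9% GC.

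Of 26 other genes of polyamine metabolism, covering breakdown, further antizymes and inhibitors, the hypusination of eIF5A that uses spermidine, S-adenosylmethionine supply and salvage, ornithine supply and transport, 19 were tested at 36 h and 20 at 72 h. None passed the false discovery rate of 0.1 in edgeR in any of the 8 comparisons, with 0 to 4 at an unadjusted p under 0.05 in each. At 72 h, 14 of 20 were higher and 6 lower in mRNA, with a median log2 fold change of 0.08, against 0.02 for all genes. EIF5A, the factor that carries hypusine, had the smallest p of the list in mRNA at 72 h (-0.46, SE 0.126, edgeR adjusted p = 0.113) and in translational efficiency at 72 h (0.51, SE 0.138, adjusted p = 0.159). MAT2A, which makes S-adenosylmethionine, had the smallest p for the mRNA difference between the time points (-0.53, SE 0.171, edgeR adjusted p = 0.252). ARG2, a mitochondrial arginase, had it for footprints at 72 h (-0.29, SE 0.137) and for their difference between the time points (-0.84, SE 0.331), with edgeR adjusted p = 0.9997 and 0.999. At 36 h the smallest p values belonged to MRI1 in footprints (0.54, SE 0.269), PAOX in mRNA (0.83, SE 0.422) and SLC18B1 in translational efficiency (-1.14, SE 0.520), with edgeR adjusted p from 0.780 to 0.999.

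Likeness of pattern was measured as the Pearson correlation of log2 CPM over the 17 libraries after each gene was centred within library type and time point, among 8969 genes tested at both. Footprint and mRNA libraries of a lysate share cells, so the values rank genes and carry no test. The genes most like ODC1 were the ribosomal protein genes RPS24 (0.94), RPL21 (0.92) and RPL30 (0.90), and AMD1 had rank 113 (0.69). Further down came AZIN1 at rank 895 (0.45), OAZ1 at 3091 (0.17), SMS at 4446 (0.02), OAZ2 at 6481 (-0.23) and SRM at 8408 (-0.57). Those most like OAZ1 were NUP85 (0.93), SLC39A3 (0.93) and UBL4A (0.91), with ODC1 at rank 3338 (0.17) and OAZ2 at rank 7983 (-0.60). For OAZ1, AMD1 had rank 2779 (0.26), SRM 4205 (0.02), AZIN1 5274 (-0.16) and SMS 8547 (-0.70).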

How the data were processed

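The authors trimmed and aligned the reads and counted them per transcript with fp-count, and the values they deposited are counts without normalization beside the number of coding codons counted. Per the labels all reads were aligned with HISAT2 2.1.0, while the study's methods name another aligner and a later annotation for 72 h. Transcripts were matched by identifier to GENCODE release 44 (hg38), which gave the coordinates. The 8 genes and the list of 26 further genes were chosen with earlier results of these data known. Named genes are the 8, the list gene with the smallest p where none passed, and the 3 genes most like ODC1 and OAZ1.

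Genes needed a mean of at least 20 counts in the footprint and in the mRNA libraries of a time point. CPM divides by the library total over tested genes times the TMM factor. Footprints and mRNA were each fitted alone in edgeR 4.0.16 (R 4.3.3, quasi-likelihood test, Benjamini-Hochberg adjustment, false discovery rate 0.1). Translational efficiency was the interaction of nuclease and library type in 1 fit of both, with 1 spread per gene shared between them, so its SE can fall below that of footprints alone. The main fit held no replicate block, although footprint and mRNA libraries of 36 h share letters. The difference between time points was the interaction of nuclease and time. Intervals are nominally 95% and use the SE with a normal approximation. With so few libraries they are narrower than the test itself implies. Replicates are pooled electroporations of 1 cell line, so p-values cover the spread between such plates. Scripts were tested on simulated data. Alternatives were DESeq2 1.42.0, other size factors and filters, limma 3.58.1 (voom), other transcripts, GC correction, replicate blocks and leaving out each library. A read shared by several transcripts of a gene counts on each, and reads themselves were not examined.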

Additional observations from a re-analysis of the deposited data

Results flagged for a closer look

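The Cas9 effect on SRM mRNA differed between the time points in a test of the difference itself. The log2 fold change at 72 h minus that at 36 h was -0.89 (SE 0.150, edgeR quasi-likelihood interaction test, adjusted p = 0.0318, over 8970 genes). The call depended on single libraries. It was lost in 4 of the 9 fits that left out 1 library, and the difference ran from -1.03 to -0.74 over these 9 fits. The libraries of 72 h had 66.0 and 79.7 CPM with Cas9 against 131 and 128 CPM with dCas9, and those of 36 h 203 to 239 CPM against 210 and 213 CPM. The guide preparation and the set of transcripts counted changed with the time point, and neither can be told apart from time. The counts list 26679 transcripts at 36 h and 98334 at 72 h, and SRM has 282 and 283 counted codons. Whether the aligner changed too is unclear.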

How the results depend on the processing

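Of 445 values of single polyamine genes under settings that kept all libraries, 415 kept direction and side of the threshold, 16 passed it in addition (mRNA at 72 h of ODC1, SAT1, OAZ1, OAZ2 and AZIN1) and 14 changed sign. The SRM calls at 72 h were kept in all 11 such settings, with log2 fold changes of -0.85 to -0.76 for mRNA (adjusted p at most 0.0496) and 0.71 to 0.82 for translational efficiency (at most 0.0717), and the SRM difference between time points in both of its settings. All 48 footprint-to-mRNA ratios computed without TMM or with the mRNA library of the same letter stayed within 1 SD. Limits of depth bear most on the 36 h footprints, where OAZ2 and AZIN1 rest on 5 and 11 counts in dCas9 e and SAT1 was not tested. The cause of the changes listed next was not tested.

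Genes called over all genes changed as follows. For mRNA at 36 h (2 calls, both higher) DESeq2, median-ratio size factors, the joint fit of both library types and GC correction gave 0. There filterByExpr gave 1 call, which was lower, and no count minimum gave 2, both lower. For translational efficiency at 36 h (0 calls) DESeq2 gave 1. For footprints at 72 h (4 calls) the joint fit gave 0, and filterByExpr, the replicate block, GC correction and both together gave 7. For mRNA at 72 h (293 calls) median-ratio size factors gave 185, no count minimum 493 and the joint fit 614. GC correction gave 2376 calls there, 842 higher and 1534 lower, against 3 and 290. For translational efficiency at 72 h (78 calls, 76 higher) the numbers were 221 with DESeq2, 170 with median-ratio size factors, 260 without a count minimum, 136 with voom and 583 with GC correction (476 higher, 107 lower). For the mRNA difference between time points (55 calls) DESeq2 gave 213.

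Between footprint and mRNA libraries of the same letter at 36 h, deviations correlated at 0.08 (Cas9 a), 0.03 (Cas9 c) and 0.01 (dCas9 d). A replicate block left translational efficiency at 36 h with 0 calls. The replicate letters of 72 h did not pair the libraries, with correlations of deviations of 0.01 for footprints and -0.14 for mRNA. With the letter as a replicate block, mRNA at 72 h had 706 calls (129 higher, 577 lower) and translational efficiency 88. With GC correction besides, mRNA had 2997 calls (1184 higher, 1813 lower) and translational efficiency 744 (579 higher, 165 lower). A crossed replicate block, chosen after seeing the data, gave 829 (188 higher, 641 lower) and 249.

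Signs changed in the following values, none of which passed the threshold. At 36 h OAZ2 mRNA was 0.0045 with GC correction. SRM translational efficiency was 0.0015 with voom, OAZ1 -0.0057 with the replicate block, -0.074 with the block and GC correction and -0.030 with GC correction, and AZIN1 -0.013 without a count minimum and -0.011 with filterByExpr. At 72 h SMS footprints were 8.22e-05 in the joint fit, 0.00021 with GC correction and 0.0032 with the block besides, SMS mRNA -0.020 in both GC settings, and SMS translational efficiency 0.020 with GC correction and 0.022 with the block besides.

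Leaving out each library in turn, where a lone remaining library is assumed to vary like the others, moved the calls over all genes between 0 and 72 for footprints, 0 and 218 for mRNA and 0 and 474 for translational efficiency at 36 h, between 1 and 41, 5 and 2828, and 1 and 1065 at 72 h, and between 0 and 40 (footprints) and 1 and 269 (mRNA) for the difference between time points. Of 373 values of the polyamine genes, 316 kept direction and side, 7 passed in addition, 10 were lost, all of SRM, and 40 changed sign. At 36 h these were footprints of SRM (-0.36 to 0.12), OAZ1 (-0.45 to 0.15) and AZIN1 (-0.050 to 0.73), mRNA of ODC1 (-0.048 to 0.12), SRM (-0.030 to 0.094), SMS (-0.051 to 0.0062) and OAZ2 (-0.044 to 0.041), and translational efficiency of SRM (-0.38 to 0.096), OAZ1 (-0.29 to 0.32) and AZIN1 (-0.48 to 0.46). At 72 h they were footprints of AMD1 (-0.20 to 0.086), SRM (-0.11 to 0.047), SMS (-0.094 to 0.10) and AZIN1 (-0.058 to 0.11), mRNA of SMS (-0.025 to 0.14), and translational efficiency of SMS (-0.15 to 0.053) and OAZ1 (-0.23 to 0.049). For the difference between time points they were footprints of SRM (-0.16 to 0.31), OAZ1 (-0.078 to 0.52) and AZIN1 (-0.76 to 0.17) and mRNA of SMS (-0.0013 to 0.16) and AZIN1 (-0.24 to 0.56).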

Other observations

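Ratios of polyamine genes to each other within a library do not depend on the scaling between libraries. Per codon, OAZ1 exceeded ODC1 in mRNA by 4.34-fold to 5.36-fold in the 4 libraries of 72 h and by 4.19-fold to 5.09-fold in the 5 libraries of 36 h. In footprints the same ratio was 2.40 to 2.61 in the 4 libraries of 72 h, below each mRNA value, and 2.89 to 5.07 at 36 h. Per codon, AZIN1 stood at 0.0849 to 0.0953 of OAZ1 in footprints and at 0.0323 to 0.0658 in mRNA at 72 h, without overlap. At 36 h the same ratio was 0.0166 to 0.0386 in footprints and 0.0183 to 0.0345 in mRNA, which overlap.

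SRM over SMS, the spermidine and spermine synthases, was 0.457 and 0.532 in the Cas9 mRNA libraries of 72 h and 0.983 and 0.855 in the dCas9 libraries, per codon. In footprints of 72 h it was 2.55 and 3.18 with Cas9 and 2.72 and 3.16 with dCas9, which overlap. At 36 h the mRNA ratio was 1.53 to 1.88 over 5 libraries. These are values of single libraries and were not tested.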
